A study of Mus musculus with 31 samples.

Results

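The 10 genes described here are Gzma, Gzmb, Gzme and Gzmk, which encode granzymes A, B, E and K, with Prf1, Nkg7, Klrd1, Klrb1c, Ncr1 and Eomes. They were chosen by name, and each was found in the count files of all 31 mice, as 10 of 22609 gene symbols. Bulk RNA-seq had been made from the left masseter muscle (MM), a jaw-closing muscle, of adult male C57BL/6J mice with no stated genetic change. One experiment used complete Freund's adjuvant (CFA), an oil emulsion holding killed mycobacteria, and compared CFA vehicle (n = 3) with CFA 1d (n = 3) and CFA 5d (n = 3). The other used collagenase type 2 (Col), an enzyme that cuts collagen, and compared Col vehicle (n = 3) with a 0.2 U dose (0.2U Col 1C, n = 4, and 0.2U Col RPC, n = 4) and with a 10 U dose at 2d (n = 4), 6d (n = 3) and 12d (n = 4). All groups had an intramuscular injection, of phosphate-buffered saline in the vehicle mice, whose day of collection is not given in the sources used here. The labels do not spell out 1C and RPC, and the days used here for 10U Col are those of the labels, which differ from the study's text at the first and the last time point.

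Natural killer (NK) cells and cytotoxic T cells kill target cells by releasing granules. Perforin, the product of Prf1, opens the target cell's membrane, and granzymes, a family of serine proteases, enter and cleave proteins inside it. Nkg7 encodes a membrane protein of these granules. Klrd1 encodes CD94, which pairs with NKG2 receptors to read class Ib MHC molecules, Klrb1c encodes NK1.1, the surface marker used for NK cells in C57BL/6 mice, and Ncr1 encodes the activating receptor NKp46. Eomes encodes a T-box transcription factor of NK cells and cytotoxic T cells. Granzymes A and B are the best known of the family and granzyme K is found in subsets of T cells and NK cells, whereas the granzyme C, D, E, F, G and N genes lie with Gzmb in one cluster of the mouse genome, and several of them are known from strongly activated killer cells.

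Gzme and its neighbour Gzmd carried the largest signal below, so the likeness of their transcripts decides how far reads can tell them apart. In the mm9 build Gzme lies on the minus strand at chr14:56736456-56739468 and Gzmd on the same strand at chr14:56748393-56751445. Their coding sequences of 762 and 759 bases matched at 715 of 759 aligned bases (94.2%), whereas Gzme matched Gzmb at 68.0%, Gzmc at 73.8% and Gzmg at 89.7% of aligned bases. The 2 windows of 100 coding bases below, taken from the GENCODE vM1 transcripts, are those with the most (14) and the fewest (1) differing bases, and capitals mark the bases that differ.
Gzme, coding bases 108 to 207: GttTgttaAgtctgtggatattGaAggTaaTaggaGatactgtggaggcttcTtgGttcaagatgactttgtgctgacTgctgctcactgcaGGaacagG
Gzmd, coding bases 108 to 207: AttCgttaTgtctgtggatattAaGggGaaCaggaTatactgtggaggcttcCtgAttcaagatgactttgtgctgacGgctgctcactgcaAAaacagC
Gzme, coding bases 336 to 435: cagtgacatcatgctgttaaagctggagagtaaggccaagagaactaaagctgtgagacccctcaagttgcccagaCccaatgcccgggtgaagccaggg
Gzmd, coding bases 333 to 432: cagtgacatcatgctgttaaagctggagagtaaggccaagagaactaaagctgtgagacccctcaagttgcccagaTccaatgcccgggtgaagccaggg
Of all 50-base windows of the Gzme exons, the length of 1 read, 19.3% were also present in another gene and 11.7% in Gzmd, and reads from such windows have more than 1 place to align. Reads set aside as not unique made 34.6% to 47.9% of counted lines and are in no gene's value, so that Gzme and Gzmd can be under-counted. Klrb1c shared 4.93% and Eomes 0.386% of such windows with other genes, the other 7 members shared none, and no member's exons overlapped those of another gene.

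The promoters of several members are shown as a description, and any link between their letters and the members' levels was not tested. Promoter entries of RefSeq (build GRCm38.p6, 250 bases before to 50 after a start site) were found for 9 of the 10 members, all but Klrd1. The letters TGTGGT, a core recognised by RUNX factors, stood on either strand in 7 of 9 members (all but Gzmk and Eomes), against 16.8% of all 32851 promoters. Members are counted per gene here and the share per promoter entry, and a gene such as Ncr1 can have more than 1 entry. GGTGTG, a T-box core, stood in 3 of 9 against 19.0%, and GGAAGT, an ETS core, in 4 of 9 against 23.8%. A match describes the letters only and is no evidence of binding. The lines below give the 160 bases before the start site, read along the gene, with TGTGGT or its reverse complement ACCACA in capitals.
Gzmb, chr14:56262335-56262494, minus strand: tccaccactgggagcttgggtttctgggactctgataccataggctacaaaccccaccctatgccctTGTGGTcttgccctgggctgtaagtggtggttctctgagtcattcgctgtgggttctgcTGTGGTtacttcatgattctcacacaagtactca
Gzme, chr14:56120626-56120785, minus strand: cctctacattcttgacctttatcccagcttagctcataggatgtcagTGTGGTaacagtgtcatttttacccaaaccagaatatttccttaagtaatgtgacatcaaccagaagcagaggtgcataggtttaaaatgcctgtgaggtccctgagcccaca
Gzmd, chr14:56132594-56132753, minus strand: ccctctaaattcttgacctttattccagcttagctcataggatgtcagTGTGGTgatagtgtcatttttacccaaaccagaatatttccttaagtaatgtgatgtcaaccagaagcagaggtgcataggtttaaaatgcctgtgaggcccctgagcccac
Ncr1, chr7:4337555-4337714, plus strand: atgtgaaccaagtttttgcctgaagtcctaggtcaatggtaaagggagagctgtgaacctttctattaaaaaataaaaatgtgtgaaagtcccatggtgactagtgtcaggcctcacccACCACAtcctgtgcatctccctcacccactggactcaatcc
The Gzme promoter held the letters at 175 and 113 bases before the start and the Gzmd promoter at 174 and 112, nearly the same places. Gzmb held them at 93 and 34 bases before it and Ncr1 at 176 and 41. The farther match of Gzme, Gzmd and Ncr1 lies outside the bases shown.

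Libraries held 14843778 to 29076671 reads on genes (median 20834472), and the members took few of them. Values per mouse are given as CPM, read counts brought to a common library total after scaling by the trimmed mean of M-values (TMM), and at these depths 1 count stood for about 0.05 CPM. Nkg7 reached 10 counts in 21 of 31 libraries, Klrd1 in 16, Gzma in 13, Gzmb in 9, Klrb1c in 8, Ncr1 in 7, Gzme, Prf1 and Eomes in 4 each, and Gzmk in 0. In each vehicle group mouse 3 stood apart: it held 107 of 113 member counts (94.7%) in CFA vehicle and 118 of 164 (72.0%) in Col vehicle. The same mice had the highest summed levels of 7 bone marrow precursor markers (328 and 739 CPM, against 1.78 to 144 CPM in the other 4 vehicle mice) and of 7 neutrophil markers (556 and 881 CPM, against 3.67 to 270 CPM). Mouse 3 also held most member counts at CFA 1d (115 of 161, 71.4%), and mouse 4 did at 10U Col 12d (226 of 285, 79.3%). Values without these mice are given beside the results that they moved. In whole muscle a change in the number of NK cells or T cells and a change in RNA per cell cannot be told apart.

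**Figure D1:**
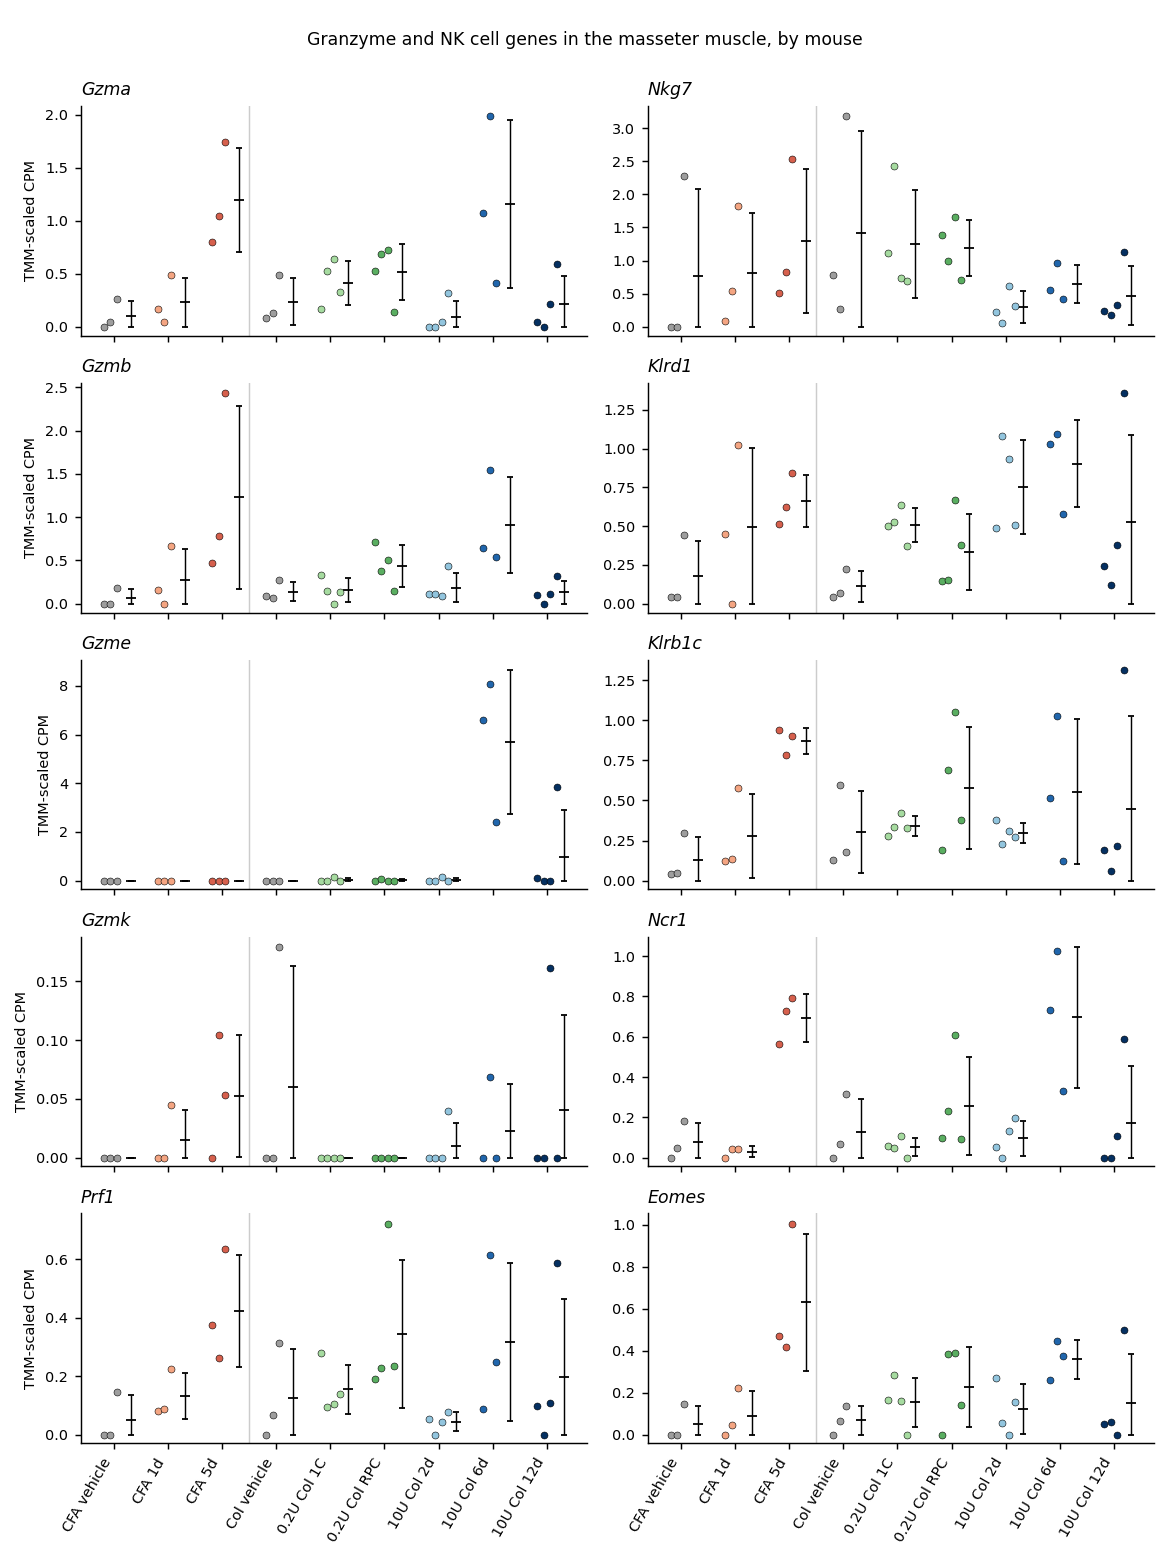
TMM-scaled CPM (vertical axis) of each of the 10 genes in every mouse (points) of the 9 groups (horizontal axis), with the group mean and SD beside the points; the lower end of an SD bar stops at 0 and the axes differ between genes. Gzme reached 2.41 to 8.08 CPM in the 3 mice of 10U Col 6d and 3.85 CPM in 1 mouse of 10U Col 12d, and stayed at or below 0.159 CPM in every other mouse, while Gzma, Ncr1, Klrb1c and Eomes were above vehicle in all 3 mice of CFA 5d.

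Levels can be compared between genes only per length of exon, as RPKM. By group mean Nkg7 was the first of the 10 in both vehicle groups (mean 0.866 RPKM in CFA vehicle and 1.61 RPKM in Col vehicle), and each gene's range over mice overlapped that of the next in order. In CFA vehicle the Nkg7 mean came from mouse 3 alone (62 counts), and the other mice had no Nkg7 count. At CFA 5d the order was Nkg7 (1.48 RPKM), Gzma (1.27), Gzmb (0.866), Klrd1 (0.517), Ncr1 (0.451), Klrb1c (0.295), Prf1 (0.206), Eomes (0.152) and Gzmk (0.0377), with Gzme at 0. Neighbours in that order overlapped except that every Ncr1 value lay above every Klrb1c value and every Eomes value above every Gzmk value. At 10U Col 6d Gzme came first at 6.04 ± 3.12 RPKM (SD, n = 3), above every Gzma value (mean 1.23 RPKM), and Nkg7 (0.733), Klrd1 (0.704), Gzmb (0.640), Ncr1 (0.452), Klrb1c (0.188), Prf1 (0.154), Eomes (0.0863) and Gzmk (0.0164) followed. A mean above 1 RPKM, the study's minimum level for a changed gene, was reached by Gzma and Gzme in 2 groups each, by Nkg7 in 4 and by the other 7 members in none. One of the Gzme groups was 10U Col 12d, where 85 of its 87 counts were in mouse 4.

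CFA served as a model of short-lived muscle pain, at 2 time points. Comparisons with vehicle within an experiment share their vehicle mice and are not independent of each other. At CFA 1d the members did not stand above CFA vehicle. Nkg7 was at 0, 0 and 2.28 CPM in CFA vehicle and at 0.0818, 0.534 and 1.83 CPM at 1d, so that the groups overlapped (log2 fold change 0.06, SE 1.68, adjusted p = 0.999 by edgeR's quasi-likelihood F test). Klrd1 was at 0.0404, 0.0456 and 0.442 CPM in CFA vehicle and at 0.450, 0 and 1.03 CPM at 1d (log2 fold change 1.40, SE 1.31, adjusted p = 0.934). Without vehicle mouse 3 the log2 fold changes were 7.28 for Nkg7 (adjusted p = 0.342), a value that depends on the prior count since the other vehicle mice had no Nkg7 count, and 3.40 for Klrd1 (adjusted p = 0.372). Without mouse 3 of 1d they were -1.37 and 0.26 (adjusted p = 1.0 for both). Only these 2 members could be tested: a gene needed 3 or more of the compared libraries with 10 counts or more, here and throughout. Each member called below with all mice in the fit reached 10 counts only in the group where it was higher, so it could be tested only because it was high there, and counts of calls among tested members are given as a description. Of them 0 were called higher at an adjusted p under 0.05, 0 had an unadjusted p under 0.05 and 0 were called by DESeq2, against 0.0% of 13944 genes called higher by edgeR. In 0 of 9 members with any count did every 1d mouse exceed every vehicle mouse, against 3.13% of all genes with a count. Ncr1 had 2 counts over the 3 mice at 1d and 6 in CFA vehicle, a ratio of 0.355 with an exact 95% interval of 0.0351 to 1.99 that covers counting error only.

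At CFA 5d Gzma, Gzmb and the receptor genes Klrd1, Klrb1c and Ncr1 were above vehicle in every mouse, but no member passed the test. Gzma was at 0, 0.0456 and 0.258 CPM in CFA vehicle and at 0.796, 1.04 and 1.74 CPM at 5d. The lowest mouse at 5d was thus above the highest vehicle mouse, and the log2 fold change was 3.46 (SE 0.91, adjusted p = 0.131 by edgeR). Gzmb was at 0, 0 and 0.184 CPM in vehicle and at 0.468, 0.782 and 2.43 CPM at 5d, again without overlap (log2 fold change 4.14, SE 1.16, adjusted p = 0.153). DESeq2 called both genes (adjusted p = 0.0322 for Gzma and 0.0356 for Gzmb). Gzme had no count in any CFA or CFA vehicle mouse.

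The receptors followed the same order. Ncr1 was at 0, 0.0456 and 0.184 CPM in CFA vehicle and at 0.562, 0.730 and 0.793 CPM at 5d (log2 fold change 3.07, SE 0.83, adjusted p = 0.139 by edgeR). Klrb1c was at 0.0404, 0.0456 and 0.294 CPM in vehicle and at 0.937, 0.782 and 0.899 CPM at 5d, the narrowest spread of any member at 5d relative to its mean (log2 fold change 2.71, SE 0.72, adjusted p = 0.135). Klrd1 was at 0.515 to 0.846 CPM at 5d, above the highest vehicle mouse at 0.442 CPM (log2 fold change 1.85, SE 0.85, adjusted p = 0.398). Nkg7 did not separate the groups: its 3 mice at 5d (0.515, 0.834 and 2.54 CPM) straddled the 2.28 CPM of vehicle mouse 3 (log2 fold change 0.74, SE 1.5, adjusted p = 0.880). Prf1 and Eomes had too few counts for a test, but the 5d mice exceeded the vehicle mice in both: Prf1 was at 0.375, 0.261 and 0.634 CPM against 0, 0 and 0.147 CPM, and Eomes at 0.468, 0.417 and 1.0 CPM against 0, 0 and 0.147 CPM.

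Thus 0 of 6 members tested were called higher at CFA 5d by edgeR, against 1.06% of 14026 genes; 4 of the 6 had an unadjusted p under 0.05, and DESeq2 called 2. In 7 of 9 members with a count every 5d mouse exceeded every vehicle mouse, against 11.7% of 17911 genes. Without vehicle mouse 3 all 6 tested members were called by edgeR (adjusted p 0.00265 to 0.0120), while the genes called in either direction went from 155 to 2201. The log2 fold change was then 5.51 for Gzma, 4.24 for Klrb1c and 4.74 for Ncr1. Gzmb and Nkg7 had no count in the vehicle mice left, so their fitted changes depend on the prior count. The 3 mice at 5d also carried far more salivary gland RNA (65480 to 80094 CPM summed over 15 markers) than the vehicle mice (142 to 9874 CPM). In an edgeR fit with salivary gland and bone marrow precursor levels as covariates, 0 genes were called in either direction, against 155 without them. Salivary gland RNA did not overlap between these groups, so its part in the members' levels cannot be told apart from that of treatment here.

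From CFA 1d to CFA 5d, a comparison without the vehicle mice, Ncr1 rose. It was at 0, 0.0445 and 0.0446 CPM at 1d and at 0.562 to 0.793 CPM at 5d (log2 fold change 4.36, SE 0.69, adjusted p = 0.0121 by edgeR), or 41 counts (12, 14 and 15) against 2, a ratio of 23.9 with an exact 95% interval of 6.21 to 204 for counting error alone. Klrb1c (0.123, 0.133 and 0.580 CPM at 1d) and Gzma (0.164, 0.0445 and 0.491 CPM at 1d) were also lower at 1d in every mouse and had log2 fold changes of 1.67 (SE 0.63, adjusted p = 0.198) and 2.36 (SE 0.72, adjusted p = 0.118). Gzmb, Nkg7 and Klrd1 had log2 fold changes of 2.15, 0.68 and 0.45 with adjusted p of 0.307, 0.748 and 0.833. One of 6 tested members was called higher, against 4.85% of 14046 genes, and 5 of 9 (Gzma, Prf1, Klrb1c, Ncr1 and Eomes) did not overlap, against 12.8% of genes. The Ncr1 call was kept in 11 of 12 alternative fits. It was lost in an edgeR fit with the salivary gland and bone marrow precursor levels as covariates (adjusted p = 0.270). At the study's thresholds the Ncr1 call was lost too, with a mean of 0.451 RPKM at 5d. Without mouse 3 of CFA 1d Klrb1c was called as well.

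Low-dose collagenase gave no call among the members. Gzma was at 0.0872, 0.133 and 0.492 CPM in Col vehicle, at 0.167, 0.525, 0.637 and 0.326 CPM in 0.2U Col 1C and at 0.53, 0.688, 0.721 and 0.141 CPM in 0.2U Col RPC. The groups overlapped, and the log2 fold changes were 0.76 (SE 0.74, adjusted p = 0.675 by edgeR) and 1.05 (SE 0.79, adjusted p = 0.561). Nkg7, the other member tested, was at 0.784, 0.266 and 3.18 CPM in Col vehicle, at 0.698 to 2.43 CPM in 1C and at 0.707 to 1.66 CPM in RPC (log2 fold changes -0.19 and -0.28, SE 0.81 and 0.75, adjusted p = 0.935 and 0.886), and its sign turned without vehicle mouse 3. Klrd1 was the single member whose 1C mice (0.501, 0.525, 0.637 and 0.372 CPM) all exceeded the vehicle mice (0.0436, 0.0665 and 0.224 CPM), but it had too few counts for a test. In 1C, 0 of 2 tested members were called higher (0.0% of 14493 genes) and 1 of 10 did not overlap (4.16% of genes). In RPC, 0 of 2 were called (0.0% of 14269 genes) and 0 of 10 did not overlap (4.32% of genes). At an unadjusted p under 0.05 the count was also 0 in both, as it was by DESeq2.

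The 10 U dose was the study's model of longer-lasting pain, at 3 time points. All 10U Col libraries had a higher share of ambiguous reads (0.675% to 0.875%) than the Col vehicle libraries (0.166% to 0.236%). The part of this difference in the comparisons with vehicle was not tested. At 10U Col 2d Klrd1 was the member that stood above vehicle. It was at 0.485, 1.08, 0.934 and 0.510 CPM, each above the highest vehicle mouse at 0.224 CPM, with a log2 fold change of 2.61 (SE 0.71, adjusted p = 0.0665 by edgeR). DESeq2 (adjusted p = 0.0280) and 5 other alternatives called it. Nkg7 was at 0.216, 0.0570, 0.623 and 0.314 CPM, each lower than 2 of the 3 vehicle mice, with a log2 fold change of -2.24 (SE 0.93, adjusted p = 0.138) that was -0.84 without vehicle mouse 3 (adjusted p = 0.523). Gzma and Gzmb overlapped vehicle: Gzma was at 0, 0, 0.0445 and 0.314 CPM and Gzmb at 0.108, 0.114, 0.0890 and 0.432 CPM. So 0 of 2 tested members were called higher, against 1.14% of 14373 genes (both had an unadjusted p under 0.05, and DESeq2 called 1), and 1 of 10 did not overlap, against 11.6% of genes. Klrd1 encodes a subunit that needs a partner, and the genes of its partners Klrc1, Klrc2 and Klrc3 together had 1 count over the 4 mice. Windows that these genes share with other genes were not counted, so their reads can have been set aside as not unique. The low count therefore cannot be read as absence.

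At 10U Col 6d Gzme was the most abundant of the 10 genes and took 57.5%, 48.0% and 44.3% of all member counts in the 3 mice. It had no count in the 3 Col vehicle mice and stood at 6.62, 8.08 and 2.41 CPM (154, 236 and 58 counts) at 6d. Against a floor of 3 counts per vehicle library (mean 0.155 CPM) it was at least 36.8-fold higher, and the fitted log2 fold change, which depends on the prior count, was 10.01 (SE 1.06, adjusted p = 0.00483 by edgeR). All 13 alternatives kept this call, with adjusted p from 1.67e-10 to 0.0243. Gzmb was at 0.0872, 0.0665 and 0.269 CPM in vehicle and at 0.644, 1.54 and 0.539 CPM at 6d, without overlap (log2 fold change 2.56, SE 0.70, adjusted p = 0.0331). Its call was lost in 6 of 13 alternatives (adjusted p up to 0.133). At the study's thresholds it was lost too, with a mean of 0.640 RPKM at 6d.

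Gzma was at 0.0872, 0.133 and 0.492 CPM in vehicle and at 1.07, 1.99 and 0.415 CPM at 6d, so that mouse 3 at 6d fell below vehicle mouse 3 (log2 fold change 2.19, SE 0.79, adjusted p = 0.0737 by edgeR). Without vehicle mouse 3 Gzma was called (log2 fold change 3.34, adjusted p = 0.0289). Klrd1 rose to 1.03, 1.10 and 0.581 CPM from 0.0436, 0.0665 and 0.224 CPM (log2 fold change 2.89, SE 0.65, adjusted p = 0.0196 by edgeR), and 4 of 13 alternatives lost the call (adjusted p up to 0.0780). At the study's thresholds the Klrd1 call was lost too, with a mean of 0.704 RPKM at 6d. Nkg7 was at 0.558, 0.958 and 0.415 CPM against 0.784, 0.266 and 3.18 CPM (log2 fold change -1.19, SE 0.82, adjusted p = 0.299), and without vehicle mouse 3 the value was 0.21 (adjusted p = 0.810).

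The other 5 members were too low for a test at 6d. Ncr1 was at 0.730, 1.03 and 0.332 CPM against 0, 0.0665 and 0.313 CPM in vehicle, and Eomes at 0.258, 0.445 and 0.373 CPM against 0, 0.0665 and 0.134 CPM, both without overlap. Prf1 was at 0.0859, 0.616 and 0.249 CPM against 0, 0.0665 and 0.313 CPM, which overlapped. Klrb1c (0.516, 1.03 and 0.124 CPM against 0.131, 0.599 and 0.179 CPM) overlapped as well, and Gzmk had 2 counts at 6d and 4 in vehicle. Thus 3 of 5 tested members were called higher, against 14.0% of 14281 genes, and 5 of 10 (Gzmb, Gzme, Klrd1, Ncr1 and Eomes) did not overlap, against 22.7% of 18279 genes. All 3 called members passed the count filter through the 6d mice alone.

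**Figure D2:**
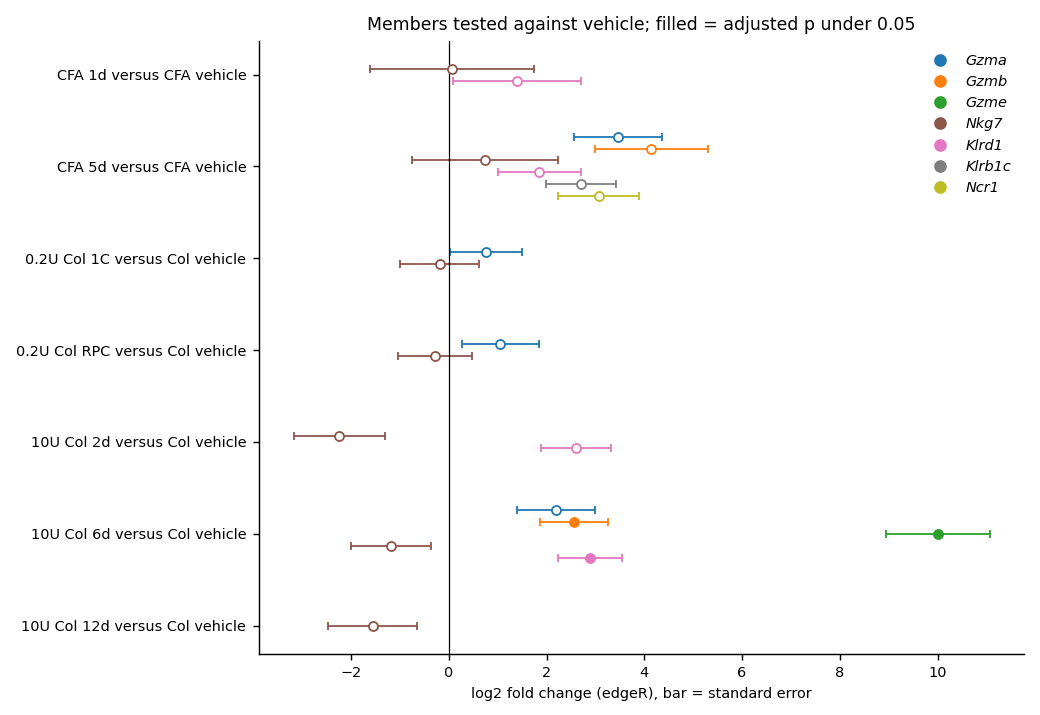
Log2 fold change against the vehicle group of the same experiment (horizontal axis) for each member tested in each comparison (vertical axis, 7 comparisons), as fitted by edgeR; bars are standard errors, and filled points mark an adjusted p under 0.05. The 3 filled points are Gzme (10.01), Klrd1 (2.89) and Gzmb (2.56) at 10U Col 6d, and the 6 members tested at CFA 5d lie above 0 with open points.

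Granzyme genes outside the list were called in both directions at 10U Col 6d. Gzmd, the near copy of Gzme shown above, was at 5.37, 4.76 and 2.57 CPM at 6d and had no count in vehicle, at least 27.3-fold higher than the floor (log2 fold change 9.58, SE 0.85, adjusted p = 0.00316 by edgeR). Like the called members, Gzmd passed the count filter through the 6d mice alone. Gzmc was at 0.945, 1.03 and 0.332 CPM with 60 counts against 1 in vehicle, a ratio of 47.2 (exact 95% interval 8.16 to 1897), and Gzmn at 0.730, 0.342 and 0.290 CPM was at least 2.93-fold above the floor. Gzmf had 0 counts in all 31 libraries and Gzmg had 1, at 6d. Gzmm, a granzyme gene on another chromosome that is known from NK cells, fell: it was at 6.62, 8.45 and 3.72 CPM in vehicle and at 2.36, 0.958 and 1.58 CPM at 6d (log2 fold change -1.95, SE 0.45, adjusted p = 0.0205). Gzmm was above 10 counts in every library and reached 9.01 ± 2.38 CPM (SD, n = 3) in CFA vehicle. There it had 659 counts, against 113 for the 10 members together.

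**Figure D3:**
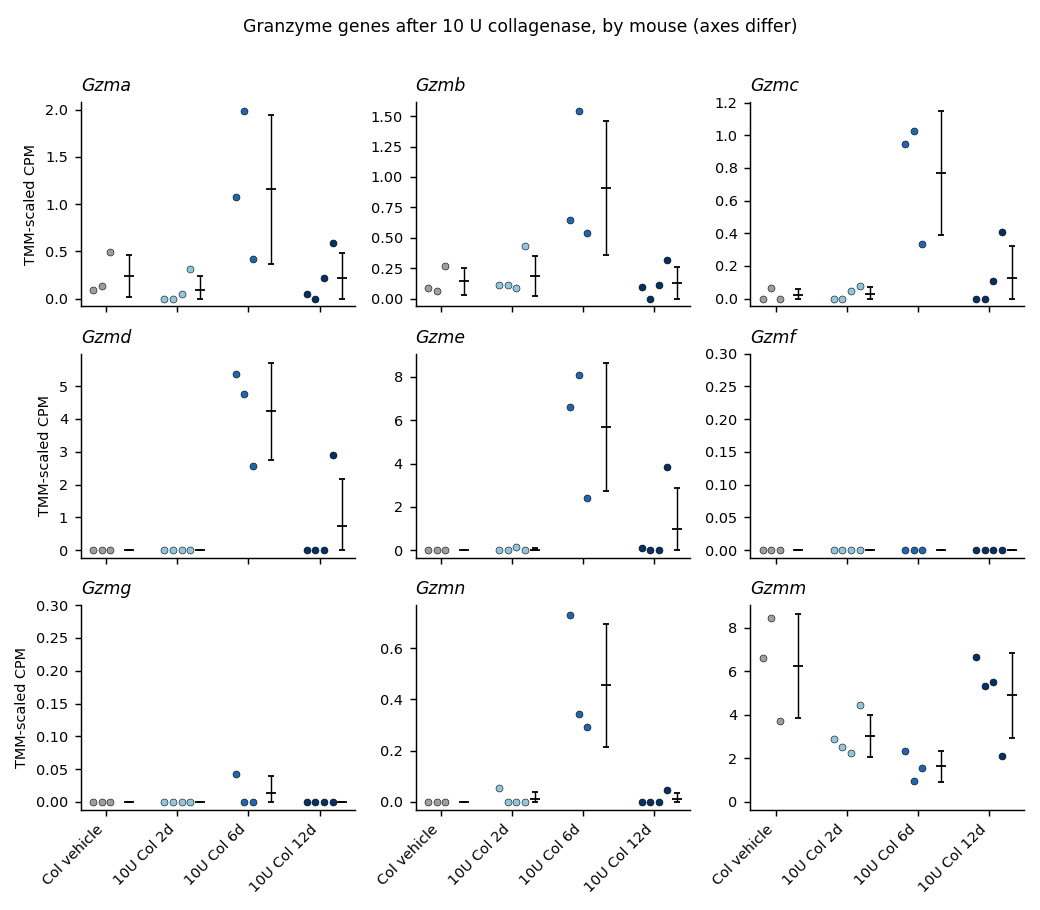
TMM-scaled CPM (vertical axis) of 9 granzyme genes in each mouse (points) of Col vehicle, 10U Col 2d, 6d and 12d (horizontal axis), with the mean and SD beside the points; the lower end of an SD bar stops at 0 and the axes differ between genes. Gzmd and Gzme rose from 0 in vehicle to means of 4.23 and 5.70 CPM at 6d, Gzmm fell from a mean of 6.26 to 1.63 CPM, and Gzmf had no count.

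Between 10U Col 2d and 6d Gzme rose from 0, 0, 0.133 and 0 CPM to 2.41 to 8.08 CPM, or from 3 counts to 448, a ratio of 164 with an exact 95% interval of 55.7 to 798 (log2 fold change 7.14, SE 0.90, adjusted p = 0.00606 by edgeR). This call was kept in all 13 alternatives (adjusted p up to 0.0356). Gzma and Gzmb were above every 2d mouse at 6d and had log2 fold changes of 3.47 (SE 1.0, adjusted p = 0.0725) and 2.22 (SE 0.67, adjusted p = 0.0817). Without mouse 4 of 2d both were called (adjusted p = 0.00782 and 0.0123). Klrd1 was at 0.485 to 1.08 CPM at 2d and at 0.581 to 1.10 CPM at 6d (log2 fold change 0.28, SE 0.44, adjusted p = 0.737), and Nkg7 had a log2 fold change of 1.06 (SE 0.66, adjusted p = 0.356). One of 5 tested members was called higher, against 4.68% of 14513 genes, and 5 of 10 (Gzma, Gzmb, Gzme, Prf1 and Ncr1) did not overlap, against 10.4% of genes. Gzmd rose with Gzme, from no count at 2d (at least 29.0-fold, adjusted p = 0.00660).

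By 10U Col 12d 3 of the 4 mice were back near vehicle levels. Gzme was at 0.0962, 0, 0 and 3.85 CPM, Gzmd at 2.90 CPM in mouse 4 and at 0 in the others, and Gzmb at 0.0962, 0, 0.108 and 0.317 CPM. Mouse 4 also held the highest 12d value of Gzma (0.588 CPM against 0.0481, 0 and 0.215), Klrd1 (1.36 CPM against 0.240, 0.122 and 0.377) and Ncr1 (0.588 CPM against 0, 0 and 0.108). Nkg7, the 1 member tested against vehicle, was at 0.240, 0.183, 0.323 and 1.13 CPM (log2 fold change -1.56, SE 0.91, adjusted p = 0.419 by edgeR). The value was -0.10 without vehicle mouse 3 (adjusted p = 0.953) and -2.49 without mouse 4 of 12d (adjusted p = 0.218). So 0 of 1 were called higher, against 0.762% of 14176 genes (0 by DESeq2 and 0 at an unadjusted p under 0.05), and 0 of 10 did not overlap, against 8.52% of genes. With 87 counts against none, Gzme was on average at least 6.37-fold above the vehicle floor at 12d, and 85 of the 87 counts were in mouse 4.

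From 6d to 12d Gzmb fell by 2.66 on the log2 scale (SE 0.74, adjusted p = 0.0363 by edgeR), and every 12d mouse was below every 6d mouse. It was the 1 of 7 tested members called lower, against 13.0% of 14344 genes, and the 1 of 10 whose groups did not overlap downwards, against 15.6% of genes. Gzme had a log2 fold change of -2.46 (SE 1.31, adjusted p = 0.178), Gzma of -2.33 (SE 0.89, adjusted p = 0.0846) and Ncr1 of -1.87 (SE 0.99, adjusted p = 0.178). Without mouse 4 of 12d 6 members were called lower, Gzme at -7.10 (adjusted p = 0.000577) and Ncr1 at -4.08 (adjusted p = 0.00673) among them, while the genes called in either direction went from 3785 to 7724. The Gzmb call was lost without any 1 of the 3 mice of 6d or of mice 1, 2 and 3 of 12d. Gzmm moved the other way, to 6.64, 5.32, 5.49 and 2.13 CPM at 12d (log2 fold change 1.61, SE 0.46, adjusted p = 0.0404).

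Whether a member changed differently after 10U Col at 6d than after CFA at 5d was tested as the difference of both changes. None of the 7 members with an estimate was called, at 0 of 7 with an unadjusted p under 0.05 and 0 by DESeq2, against 11.3% of 14892 genes in either direction. Gzma had a difference of -1.27 (SE 1.31, adjusted p = 0.551), Gzmb of -1.58 (SE 1.48, adjusted p = 0.506), Ncr1 of -0.74 (SE 1.39, adjusted p = 0.759) and Eomes of -1.17 (SE 1.53, adjusted p = 0.646). For Klrb1c it was -1.79 (SE 1.22, adjusted p = 0.352 by edgeR), for Klrd1 1.03 (SE 1.16, adjusted p = 0.589) and for Nkg7 -1.92 (SE 1.95, adjusted p = 0.546). Nkg7 was called without CFA vehicle mouse 3 (-9.07, adjusted p = 0.0246). That value depends on the prior count, since the other CFA vehicle mice had no Nkg7 count. With standard errors above 1 on the log2 scale, differences of several-fold in either direction were not detectable. Gzme could not be fitted because the 6 CFA mice in it had no count: it was at 2.41 to 8.08 CPM in the 3 mice of 10U Col 6d and at 0 in the 3 mice of CFA 5d.

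The rest of the cytotoxic pathway was read at 10U Col 6d from lists of genes by role, beside 1994 genes called higher (14.0%) and 1906 called lower of 14281. Listed genes near 0 in vehicle, such as Cd160, passed the count filter through the 6d mice alone. Counts of calls among tested genes of all lists, here and below, are therefore a description, as for the members. Of 10 tested genes that load, release or inhibit granules 1 rose and 1 fell, with a median log2 fold change of -0.08 (0.01 over all genes). Ctsc, the protease that activates granzymes, rose from 71.9 ± 7.74 to 150 ± 35.5 CPM (log2 fold change 1.04, SE 0.20, adjusted p = 0.0123), and Rab27a, which docks granules, fell from 14.2 ± 7.21 to 4.94 ± 0.974 CPM (-1.54, SE 0.43, adjusted p = 0.0358; lost in 8 of 13 alternatives). Of 13 tested NK receptors and adaptors 7 rose (Klri2, Cd244, Cd160, Slamf7, Tyrobp, Fcer1g and Fcgr3, with 1 to 9 over the alternatives) and none fell, with a median of 1.94. The 10 macrophage markers had a median of 2.69 in the same comparison. Which cells carried these receptor and adaptor RNAs was not tested. Cd160, an activating receptor, went from 0.0149 ± 0.0258 to 0.540 ± 0.0962 CPM (4.61, SE 0.84, adjusted p = 0.0107). Fcer1g, an adaptor chain that macrophages and mast cells also use, went from 11.8 ± 7.08 to 68.6 ± 25.8 CPM (2.49, SE 0.47, adjusted p = 0.0124). The 14 listed receptors left untested had few counts, and Klrc1, Klrg1, Klra1, Klra3 and Klra8 had 5 to 9 counts each over the 3 mice. Shared windows were not counted for these receptors either.

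Transcription factors and cytokine receptors moved in part. Of 11 tested factors 4 rose, namely Zbtb32, Tcf7, Zeb2 and Prdm1 (median 0.67). The count was 0 to 6 over the alternatives, and each of these calls was lost in 4 to 7 of 13. Prdm1, which encodes Blimp-1, was at 3.16 ± 0.514 CPM in vehicle and 7.65 ± 1.69 CPM at 6d (log2 fold change 1.25, SE 0.28, adjusted p = 0.0198 by edgeR). Of 11 tested cytokines and receptors 3 rose and 1 fell (median 0.29). Il2rg, the common chain of the receptors for interleukins 2, 15 and 21, rose from 5.01 ± 2.26 to 26.7 ± 7.28 CPM (2.37, SE 0.37, adjusted p = 0.00659) and was called in all 13 alternatives. Il12rb2, a chain of the interleukin 12 receptor, rose from 0.0883 ± 0.0765 to 1.01 ± 0.0764 CPM (3.29, SE 0.65, adjusted p = 0.0136), whereas Il2ra fell from 4.50 ± 0.637 to 2.07 ± 0.683 CPM (-1.14, SE 0.34, adjusted p = 0.0424; lost in 8 of 13 alternatives).

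Effector chemokines and genes that guide cells into tissue were counted in the same way. Of 4 tested effector genes 2 rose: Ccl3 from 0.0520 ± 0.0465 to 2.92 ± 1.41 CPM (log2 fold change 5.69, SE 0.79, adjusted p = 0.00485 by edgeR) and Ccl5 from 0.305 ± 0.327 to 1.96 ± 0.930 CPM (2.60, SE 0.81, adjusted p = 0.0482; lost in 7 of 13 alternatives). Of 10 tested trafficking receptors and ligands 6 rose, with Cx3cr1, Cxcr4, Cxcl9, Cxcl10 and Cxcl16 among them, and the median was 1.70. Of 4 tested ligands of activating receptors 2 rose, Cd48 (2.52, SE 0.45, adjusted p = 0.0101) and Pvr (1.86, SE 0.27, adjusted p = 0.00526).

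The other comparisons with vehicle gave fewer calls in these lists. At CFA 5d against vehicle the 1 called gene was Ccl3 (0.0397 ± 0.0371 to 1.03 ± 0.340 CPM, log2 fold change 4.54, SE 0.73, adjusted p = 0.0447 by edgeR; lost in 11 of 13 alternatives), and the 9 tested NK receptors and adaptors had a median of 1.27 with 0 calls (0 to 6 over the alternatives). From CFA 1d to 5d Il2rb, which encodes the shared beta chain of the interleukin 2 and 15 receptors, rose from 0.524 ± 0.207 to 2.56 ± 0.838 CPM (2.31, SE 0.45, adjusted p = 0.0259; kept in 6 of 12 alternatives). From 2d to 6d Slamf7, an activating receptor of NK cells and other leukocytes, rose from 2.30 ± 0.888 to 10.1 ± 2.99 CPM (2.13, SE 0.35, adjusted p = 0.0148) and Ccl5 from 0.522 ± 0.160 to 1.96 ± 0.930 CPM (1.90, SE 0.46, adjusted p = 0.0450; lost in 9 of 13 alternatives). At 12d Il12rb2 was above vehicle at 3.32 ± 0.741 CPM (5.05, SE 0.65, adjusted p = 0.0142) and above its own 6d level (1.73, SE 0.27, adjusted p = 0.0110). From 6d to 12d Ccl3 fell by 3.82 (SE 0.84, adjusted p = 0.0201), Il2rg by 1.74 (SE 0.39, adjusted p = 0.0210) and Pvr by 1.59 (SE 0.26, adjusted p = 0.0114). H60b, a ligand of the activating receptor NKG2D, had no count in Col vehicle and was at 0.663 ± 0.290 CPM at 12d, at least 4.28-fold higher (adjusted p = 0.0453; lost in 8 of 14 alternatives).

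At 10U Col 6d macrophage markers and some T cell markers rose, and markers of several other cells and tissues fell. Of 10 macrophage markers 9 rose, and their summed level was 1443 to 2836 CPM at 6d against 163 to 499 CPM in vehicle. Of 8 tested T cell markers 3 rose (Zap70, Cd4 and Cd247, the last lost in 12 of 13 alternatives), and the sum over all 15 was 23.9 to 32.2 CPM against 11 to 20 CPM. The defining T cell genes were low but above 0: Cd3e had 22 counts over the 3 mice at 6d against 5 in vehicle, Cd8a 29 against 12 and Cd3d 4 against 7. All 4 tested bone marrow precursor markers and all 6 tested salivary gland markers fell, the first from 6.98 to 739 CPM in vehicle to 1.44 to 2.86 CPM at 6d and the second from 122 to 69899 CPM to 29.2 to 68.1 CPM. Of 8 skeletal muscle markers Ckm and Myh4 fell, and the sum went from 98921 to 157687 CPM in vehicle to 32818 to 59908 CPM. The neutrophil genes S100a8 and S100a9 were called lower (2 of 6 tested). The neutrophil sum was 9.18 to 881 CPM in vehicle, highest in mouse 3, and 22.4 to 34.7 CPM at 6d, so the ranges overlapped. The study's flow cytometry, a count of cells and not of RNA, reported raised neutrophils in MM at 6d. The mast cell genes Cpa3, Mcpt4 and Hdc fell as well (3 of 6 tested), with sums of 37.6 to 49.9 CPM and 14.9 to 24.4 CPM. The calls of these 7 genes were lost in 4 to 8 of 13 alternatives, and with salivary gland and bone marrow precursor levels as covariates S100a8 was at 1.07 (adjusted p = 0.409). The summed level of the 9 members other than Gzme was 3.03 to 8.76 CPM at 6d and 1.13 to 5.28 CPM in vehicle. At 12d mouse 4, the mouse with Gzme, had a macrophage sum of 1080 CPM against 174 to 326 CPM in the other 3 and a T cell sum of 32.7 CPM against 19.5 to 26.6 CPM. The part of these cells in the members' levels was not tested.

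**Figure D4:**
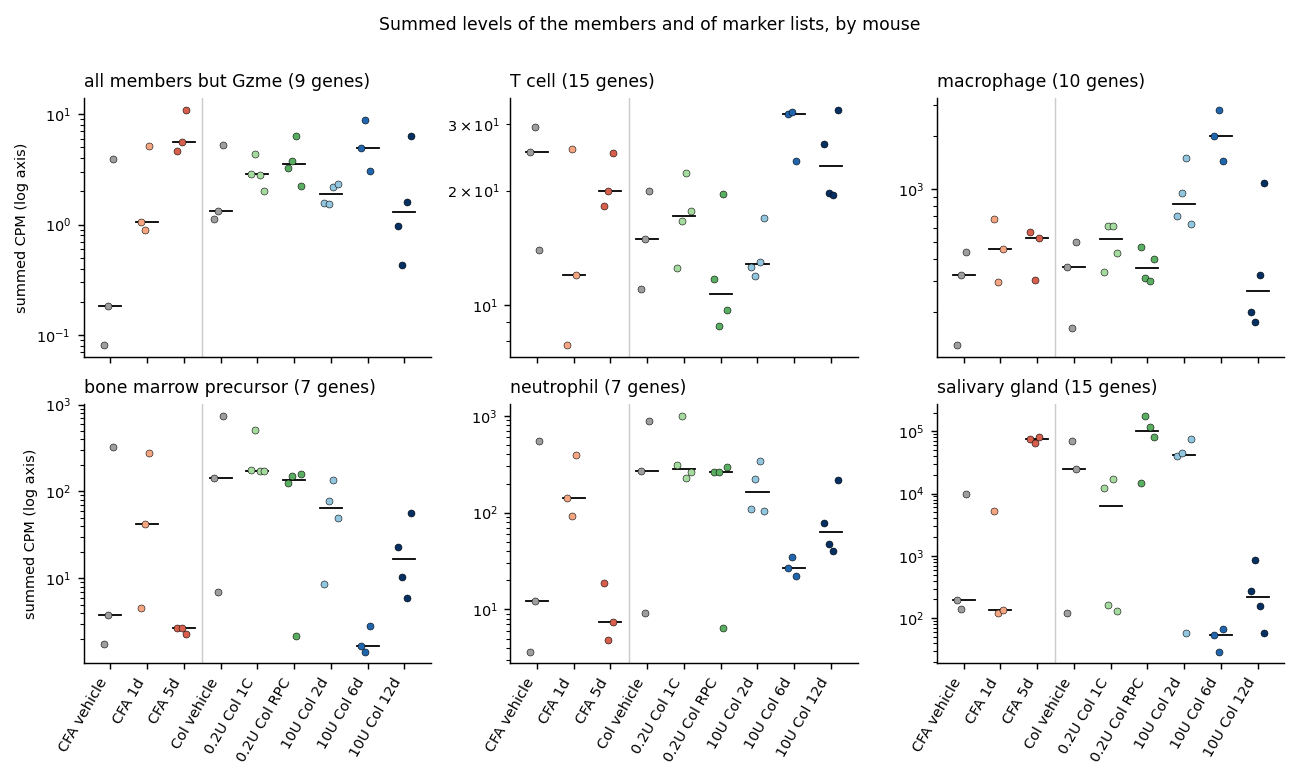
Summed TMM-scaled CPM (vertical axes, log scale) of the 9 members other than Gzme and of 5 lists of marker genes in each mouse (points) of the 9 groups (horizontal axis); lines are group medians. Mouse 3 of both vehicle groups is the highest of its group for the members, the bone marrow precursors and the neutrophils, macrophage markers reach 1443 to 2836 CPM at 10U Col 6d, and salivary gland markers span 29.2 to 176667 CPM.

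Over all 31 libraries each member was set beside 15525 other genes that reached 10 counts in 3 or more libraries, by Pearson's r of log2(CPM + 1). These values share groups, libraries and depth and are a description. Gzma was most like Ncr1 (r = 0.88), Gzmb (0.86) and Cd72 (0.83), and Ncr1 was most like Gzma (0.88), Il2rb (0.85) and Ccl5 (0.85). Prf1 was most like Il2rb (0.90), Sh2d2a (0.90) and Cd8a (0.84), Klrb1c like Ccl5 (0.83), Il2rb (0.83) and Klrk1 (0.82), and Eomes like Xcl1 (0.84), Ccl5 (0.83) and Klrk1 (0.81). Gzmb was nearest to Gzma (0.86), Parp9 (0.86) and Xcl1 (0.84). The other 3 differed: Klrd1 was nearest to Slfn8 (0.90), Ms4a6c (0.88) and the myeloid integrin gene Itgax (0.88), Nkg7 to Sla2 (0.82), Spn (0.82) and Ly6c2 (0.80), and Gzme to Gzmd (0.99), Pkhd1 (0.98) and R3hdml (0.98). Gzme had counts in 8 of the 31 libraries and 10 or more in 4, so its r values rest on few mice.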

How the data were processed

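Masseter RNA from 31 mice had been made into poly(A)-selected stranded libraries and sequenced as 50-base single reads on an Illumina HiSeq. The authors aligned reads to mm9 with TopHat2 and counted them with HTSeq (versions, annotation and strand setting not given in the sources used here), and the deposited files hold 1 raw count per gene symbol and mouse. The lines that name no gene held 41.7% to 58.9% of counts and were left out. Reads with an ambiguous gene made 0.675% to 0.875% of counts in the 11 libraries of 10U Col and 0.147% to 0.317% in the other 20. Col vehicle is among these 20, so every comparison of 10U Col with vehicle crosses this difference. It cannot be told apart from treatment there, and its part in the members' values was not tested. Depth was 14843778 to 29076671 reads on genes, and 1 to 10 counts set many of the members' values.

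The 10 genes and the gene lists were chosen with earlier results of these data known. Each comparison was fitted on its own groups with edgeR 4.0.16 in R 4.3.3 (TMM, quasi-likelihood F test) for genes that reached 10 counts in 3 or more libraries, with Benjamini-Hochberg adjustment over all tested genes, and called at an adjusted p under 0.05. The standard error was the fitted log2 change over the root of its F statistic. Mice are separate samples by the labels, and p-values measure the spread between them. CPM were gene counts brought to a common library total and scaled by TMM over all 31 libraries. Unscaled CPM would move the median log2 ratio of all genes by -0.46 to 0.54 between groups, and changes are given after scaling. RPKM used exon lengths of GENCODE vM1 (mm9), in which 21627 of 22609 symbols were found. Floors were 3 counts per library, and intervals of count ratios were exact at 95%. Of the lists the text names all 10 members, per comparison up to 4 called genes with the largest change or, with none called, up to 2 of the highest level, and for likeness the 3 genes of highest r; genes outside this rule (single receptors and T cell markers given by counts) were chosen after their values were seen, and 1 gene that the rule names is not reported here.

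Alternatives were DESeq2 1.42.0, its size factors in edgeR, no count filter, 1 fit of all libraries, the replicate number as a block, leaving out each mouse, pooled vehicle groups, the study's thresholds (RPKM over 1 and fold over 2) and, chosen after seeing the data, a fit with salivary gland and bone marrow precursor levels as covariates. Tallies of alternatives for single genes and for gene lists leave out the study's thresholds. Replicate numbers are shared between groups. In CFA 1d against CFA vehicle the deviations of all 3 same-numbered pairs correlated (r = 0.177 to 0.600), so the numbers may pair these mice, and the block changed no member's call there. The fits were tested on simulated counts.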

Additional observations from a re-analysis of the deposited data

Results flagged for a closer look

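In groups of 4 mice a value was marked when its gap to the nearest other mouse was large against the group's whole range (Dixon's 95% critical value). The rate of about 1 of 20 groups by chance holds for normally spread values and not for low counts. A group with counts in 1 mouse only is always marked, so the number of marks is a description. Of 38 member and group combinations tested, 12 were marked, and the groups of 3 mice were not tested.

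Mouse 4 of 10U Col 12d held 4 of the 12. Gzme was at 3.85 CPM (85 counts) there, Klrb1c at 1.31 CPM (29 counts), Nkg7 at 1.13 CPM (25 counts) and Eomes at 0.498 CPM (11 counts), each far above the other 3 mice. Mouse 4 of 10U Col 2d stood above its group in Gzma (0.314 CPM, 8 counts) and Gzmb (0.432 CPM, 11 counts). Mouse 3 of 0.2U Col RPC stood above its group in Prf1 (0.721 CPM, 13 counts).

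The other 5 marked values rest on 1 to 3 counts in a group otherwise at 0, where the mark was fixed in advance. Gzme was at 0.159 CPM in 0.2U Col 1C mouse 3, at 0.0764 CPM in 0.2U Col RPC mouse 2 and at 0.133 CPM in 10U Col 2d mouse 3. Gzmk was at 0.0392 CPM in 10U Col 2d mouse 4 and at 0.162 CPM in 10U Col 12d mouse 3.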

How the results depend on the processing

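The counts of called members stayed at 0 under every alternative run for CFA 1d, both 0.2U Col groups and 10U Col 12d against vehicle. At CFA 5d against vehicle the count of 0 became 2 with DESeq2 and ranged from 0 to 6 without single mice (6 without CFA vehicle mouse 3). At 10U Col 2d the count of 0 became 1 with DESeq2, with the fit of all libraries, with pooled vehicles and with the tissue covariates, became 2 with the replicate block (Klrd1 higher, Nkg7 lower), and ranged from 0 to 1 without single mice (1 without 2d mouse 4). At 10U Col 6d the count of 3 fell to 1 with the replicate block and with the study's thresholds and ranged from 1 to 4 without single mice (1 without 6d mouse 1, 6d mouse 2 or Col vehicle mouse 1). From CFA 1d to 5d the count of 1 became 0 with the tissue covariates and the study's thresholds and ranged from 1 to 2 without single mice (2 without 1d mouse 3). From 10U Col 2d to 6d the count of 1 became 3 with DESeq2 and the replicate block and 2 with the fit of all libraries and the tissue covariates, and ranged from 1 to 3 (3 without 2d mouse 4). From 6d to 12d the count of 1 became 5 with the replicate block, 3 with the tissue covariates and 0 with the study's thresholds, and ranged from 0 to 6. For the difference between 10U Col 6d and CFA 5d it ranged from 0 to 1 without single mice. Outside CFA 1d the replicate numbers did not pair the mice by the data, and the causes of these changes were not tested.

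Of the member values, 540 kept direction and side of the threshold, 39 passed it, 17 lost it and 25 reversed. Nkg7 reversed to -0.44 at CFA 1d with pooled vehicles, to 0.43 (replicate block) and 0.21 (pooled vehicles) in 0.2U Col 1C, to 0.48 (replicate block), 1.0 (tissue covariates) and 0.10 (pooled vehicles) in 0.2U Col RPC, and to 1.60 (tissue covariates) at 10U Col 6d. With the tissue covariates the difference between treatments reversed to 0.60 for Gzma, 0.98 for Ncr1 and 1.60 for Eomes. Without single mice Nkg7 ranged from -1.37 to 7.28 at CFA 1d, -0.21 to 7.81 at CFA 5d, -0.74 to 1.21 in 1C, -0.76 to 1.17 in RPC, -1.66 to 0.21 at 10U Col 6d and -0.27 to 2.10 from CFA 1d to 5d. Klrd1 ranged from -0.16 to 1.53 from CFA 1d to 5d, Klrb1c from -1.78 to 0.52 from 10U Col 6d to 12d, and the treatment difference from -2.42 to 1.33 for Ncr1 and from -0.97 to 2.08 for Klrd1.

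The background moved too: over all alternatives the genes called in either direction went from 3900 to 1072 and 5929 at 10U Col 6d, from 155 to 0 and 2201 at CFA 5d, from 319 to 12 and 5694 at 10U Col 2d, from 174 to 41 and 1813 at 12d, from 820 to 91 and 1484 from CFA 1d to 5d, from 1267 to 146 and 4126 from 10U Col 2d to 6d, from 3785 to 230 and 7724 from 6d to 12d, from 1684 to 611 and 2764 for the treatment difference, and from 0 up to 56 at CFA 1d, 519 in 1C and 443 in RPC.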
